A study of Mus musculus with 44 samples.

Results

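The genes described here are 43 named genes of the cell cycle and DNA replication in mouse peritoneal macrophages, and 42 of them carry their symbol in the deposited table of 46078 genes. The last, Cdt1, has no symbol there and was found by its Ensembl identifier, so it stands outside every count and sum below and its values are given separately. The names were given as a list by function, from the licensing of replication origins to the mitotic spindle, and all 42 passed the filter on low counts that left 14537 genes to test. The cells were elicited in C57BL/6 mice with thioglycolate, collected 4 days after the injection and cultured as adherent cells in DMEM with serum. They received LPS (100 ng/mL), IL-4 (10 ng/mL), an extract of H9c2 cells (10 µg/mL; H9c2 is a rat cardiac myoblast line) or no stimulus, the control, and RNA was taken after 8, 24 or 72 h. Groups held 4 libraries, except control 72 h, IL-4 72 h, cell extract 24 h and cell extract 72 h with 3 each. The labels name no gene edit or transgene in any group, and they describe 1 pooled isolate of cells, so the p-values measure only the spread between cultures.

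A dividing cell first licenses its replication origins by loading the MCM helicase, a ring of 6 MCM subunits, then copies its DNA with newly made nucleotides, and then separates the chromosomes on a spindle. E2F factors drive the genes of the first steps at the passage from G1 to S phase, and the MuvB complex with B-Myb or FOXM1 activates the mitotic genes later, through elements that include the CHR. In resting cells MuvB is part of the DREAM complex, which represses cell cycle genes, and the CCAAT elements of many mitotic promoters are bound by NF-Y. Tissue macrophages can divide in place, and elicited peritoneal macrophages are largely non-dividing cells, so the RNA of these genes in bulk culture can come from a few cycling cells or from many cells with little of it. Fewer cells with the RNA and less RNA per cell cannot be told apart in these libraries.

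The promoter windows of 5 members are shown, which stand for role groups described next. The members were picked within their groups by the smallest p in LPS against control at 72 h, among those with a window. Together the windows hold elements of the E2F and of the CHR and CCAAT classes, though not each holds all of them. They come from RefSeq on build GRCm38.p6, whose coordinates are those of mm10, and run from 250 bases before the gene's start to 50 after it, 5′ to 3′ on the gene's strand. The end of the Mcm6 window was not found in the gene's transcripts, unlike that of the other printed windows, so its start is less certain. Capitals mark matches, on either strand, to the CHR letters TTTGAA, to CCAAT, or to 1 of 4 E2F spellings. Those are TTGGCGC and the variants TTCCCGC and then TTGCCGC and also TTCGCGC. Overlapping E2F matches run together. Mcm6 (chr1:128359656-128359955, minus strand) encodes a helicase subunit, Rrm1 (chr7:102441445-102441744, plus strand) the large subunit of ribonucleotide reductase, Ccnb2 (chr9:70421505-70421804, minus strand) cyclin B2, Bub1 (chr2:127831810-127832109, minus strand) a spindle checkpoint kinase, and Cenpa (chr5:30666636-30666935, plus strand) the centromeric histone H3 variant.
Mcm6: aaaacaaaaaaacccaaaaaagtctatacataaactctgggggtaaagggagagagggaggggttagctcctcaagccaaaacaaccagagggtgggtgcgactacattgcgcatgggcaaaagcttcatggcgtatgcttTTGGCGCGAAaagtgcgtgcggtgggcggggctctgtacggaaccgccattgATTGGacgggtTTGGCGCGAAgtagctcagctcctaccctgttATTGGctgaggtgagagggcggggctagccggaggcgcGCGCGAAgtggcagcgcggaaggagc
Rrm1: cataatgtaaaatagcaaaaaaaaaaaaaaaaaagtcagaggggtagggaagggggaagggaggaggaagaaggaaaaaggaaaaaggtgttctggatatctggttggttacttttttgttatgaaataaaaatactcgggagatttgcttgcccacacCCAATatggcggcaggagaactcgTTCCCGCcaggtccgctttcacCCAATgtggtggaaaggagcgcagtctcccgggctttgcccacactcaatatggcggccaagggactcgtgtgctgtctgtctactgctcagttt
Ccnb2: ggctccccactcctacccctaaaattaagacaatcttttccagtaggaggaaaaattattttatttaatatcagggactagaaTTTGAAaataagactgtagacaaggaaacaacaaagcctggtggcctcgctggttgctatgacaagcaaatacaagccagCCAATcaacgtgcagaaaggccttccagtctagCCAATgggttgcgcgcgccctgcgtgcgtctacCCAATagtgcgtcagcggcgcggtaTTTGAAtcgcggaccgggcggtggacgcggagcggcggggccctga
Bub1: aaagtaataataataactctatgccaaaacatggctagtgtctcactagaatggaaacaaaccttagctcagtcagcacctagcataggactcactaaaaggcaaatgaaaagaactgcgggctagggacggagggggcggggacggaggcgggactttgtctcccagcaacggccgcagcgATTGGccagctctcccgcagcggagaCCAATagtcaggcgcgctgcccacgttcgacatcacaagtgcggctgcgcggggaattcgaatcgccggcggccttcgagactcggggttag
Cenpa: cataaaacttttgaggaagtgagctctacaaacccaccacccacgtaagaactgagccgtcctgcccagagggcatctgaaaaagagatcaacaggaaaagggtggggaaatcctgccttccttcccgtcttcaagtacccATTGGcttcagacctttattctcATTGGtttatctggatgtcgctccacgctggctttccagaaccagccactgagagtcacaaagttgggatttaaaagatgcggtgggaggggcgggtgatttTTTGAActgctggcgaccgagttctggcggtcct
The Mcm6 window held 2 CCAAT and 5 E2F matches, the Rrm1 window 2 CCAAT and 1 E2F match, the Ccnb2 window 2 CHR and 3 CCAAT matches, the Bub1 window 2 CCAAT matches, and the Cenpa window 1 CHR and 2 CCAAT matches. In Ccnb2 the CCAAT matches lay 87, 54 and 21 bases before the start. Windows were at hand for 35 members, 37 windows in all. CHR stood in 13 of 18 windows of the 3 mitotic role groups (72.2%), in 3 of 19 of the 3 replication and G1/S groups (15.8%), and in 17.9% of all 32817 windows. E2F matches ran the other way, in 3 of 18 mitotic windows (16.7%), 12 of 19 replication and G1/S windows (63.2%) and 9.57% of all. CCAAT was in 30 of the 37 windows (81.1%) against 37.4% of all. The window of E2f1 lies within its own gene model and held no match to any of these letters, so it is not printed. A match is a string of letters, and binding was not measured.

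Reads in genes per library ranged from 0.908 to 26.6 M (M, mega-reads), with group medians from 2.42 M (IL-4 8 h) to 15.9 M (IL-4 72 h). IL-4 24 h replicate 1 and LPS 72 h replicate 1 were the shallowest. Levels are given as CPM, the usual per-library scale, after TMM scaling of library sizes. In the control 8 h libraries the summed LPS-induced genes stood between 10.7 and 309 CPM, against 8717 to 9839 in the LPS 8 h libraries. In 7 libraries reads that were ambiguous between genes made up more than 10% of gene and ambiguous reads together. IL-4 72 h replicate 3 held Retnla, an IL-4-induced gene, at 13.2 CPM against 854 and 778 in the other IL-4 72 h libraries, while the IL-4-induced Arg1 (2447 against 1864 and 1721) and Chil3 (31610.0 against 46680.0 and 41020.0) were high in all 3. Every test is edgeR's quasi-likelihood test fitted over all 44 libraries, with p-values adjusted by Benjamini and Hochberg over the 14537 genes and a call at an adjusted p under 0.05. The error given with a log2 fold change is its SE.

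The members' summed level was similar in control cultures at 8 and 24 h and higher at 72 h, whereas in all stimulated cultures it was lowest at 72 h. In control cultures the 42 genes together reached 488 ± 7.99 CPM (SD, n = 4) at 8 h, 498 ± 24.4 CPM (SD, n = 4) at 24 h and 586 ± 17.8 CPM (SD, n = 3) at 72 h. At 72 h they stood at 344 ± 12.4 CPM (SD, n = 4) with LPS, 380.5 ± 32.3 CPM (SD, n = 3) with IL-4 and 346 ± 10.1 CPM (SD, n = 3) with the extract. No stimulated library at 72 h reached the lowest control library, which held 567 CPM, and the highest stimulated one held 406 CPM, with IL-4. Abundant genes weigh most in this sum. In control at 72 h the nucleotide supply and fork factors averaged 178 CPM of it, and the mitotic cyclins and kinases 38.1 CPM. At 8 h the sum depended on the scaling: it was 487 ± 10.1 CPM (SD, n = 4) with LPS, near control, whereas on CPM of the raw library total it was 374 ± 25.7 CPM (SD, n = 4) with LPS and 518 ± 35.4 CPM (SD, n = 4) in control.

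**Figure D1:**
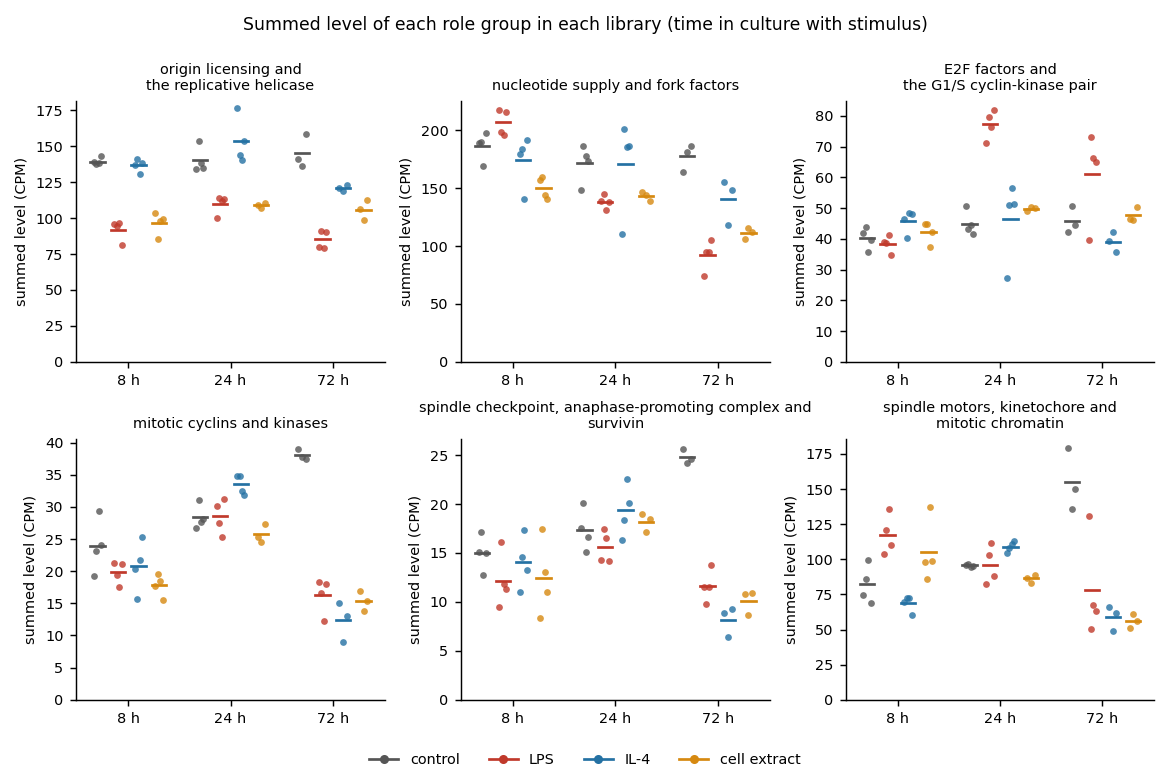
Summed level (CPM, y axes from 0) of the members of each of 6 role groups in each library at 8, 24 and 72 h, coloured by stimulus; points are libraries and bars group means. At 72 h the control libraries lie highest for mitotic cyclins and kinases, with a mean of 38.1 CPM against 16.3, 12.4 and 15.4 CPM with LPS, IL-4 and the extract.

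At 72 h most members were below control under each of the 3 stimuli, while a few G1/S genes rose or held their level. With LPS, 28 members fell and 2 rose, where 31.5% of all tested genes were called (16.1% rose and 15.4% fell). With IL-4, 26 fell and 1 rose, where 23.7% of all tested genes were called (13.2% rose and 10.5% fell). With the extract, 26 fell, where 26.3% of all tested genes were called (14.2% rose and 12.2% fell). These shares over all tested genes also apply to the 72 h counts by role group below. No member rose with the extract in edgeR's test, 1 rose at an unadjusted p under 0.05, and DESeq2 called 28 fallen and none risen. The median log2 fold change of the members was -0.92 with LPS, -1.18 with IL-4 and -1.05 with the extract, against 0.05, 0.00 and 0.00 over all tested genes. The members' libraries lay entirely below control for 28, 27 and 30 members, where 14.3%, 16.9% and 18.5% of all genes did so. The 3 comparisons share the same 3 control libraries, so their values stand side by side and do not support each other. Without IL-4 72 h replicate 3, 23 members were called with IL-4, 2 risen and 21 fallen. With any 1 library left out in turn, 22 of the 30 calls with LPS, 18 of the 27 with IL-4 and 16 of the 26 with the extract were kept in every fit. Without the 7 libraries rich in ambiguous reads, a check chosen after the data were seen, 27, 21 and 18 members were called.

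**Figure D2:**
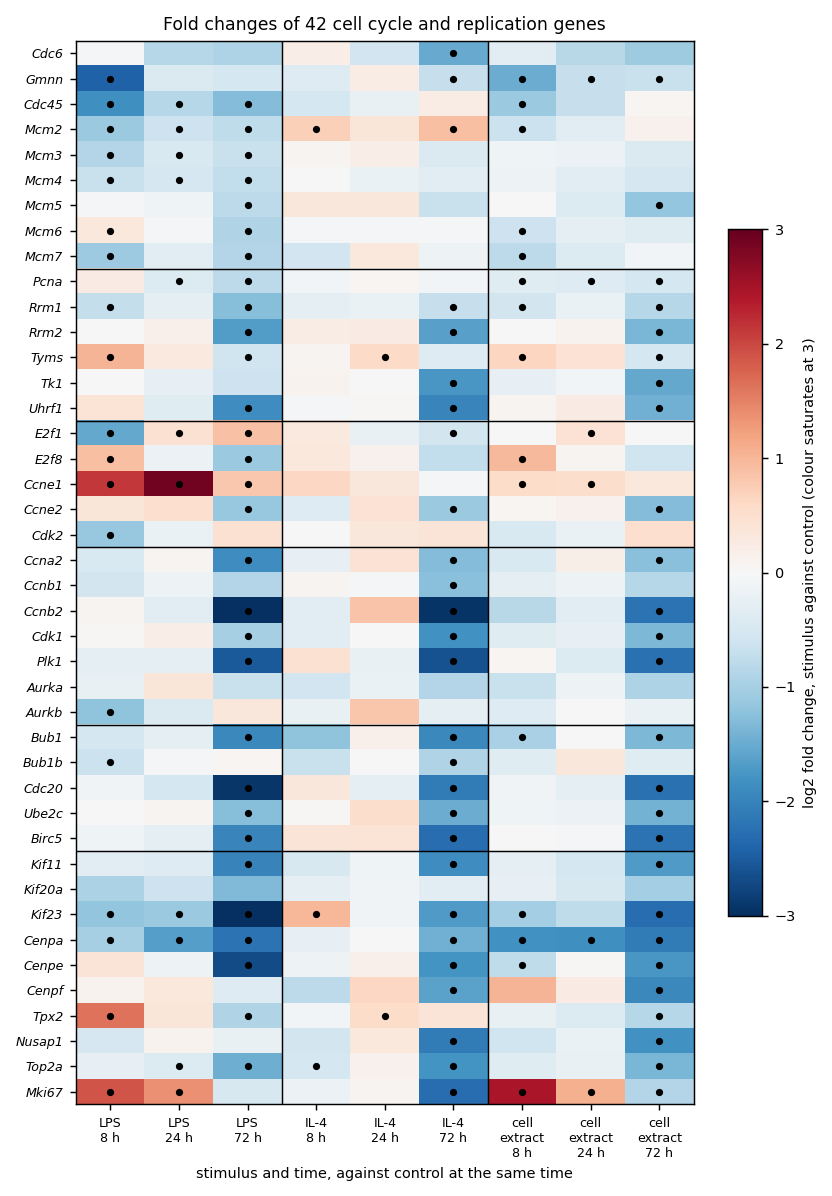
Fold change (log2, colour, saturating at 3 either way) of the 42 members, in rows by role group, for each stimulus against control at 8, 24 and 72 h, in columns; a black dot marks an adjusted p under 0.05. The 72 h columns hold 28, 26 and 26 fallen members for LPS, IL-4 and the extract, and the 24 h IL-4 column holds 2 calls, both upward.

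Most mitotic cyclins and kinases were below control at 72 h: 4 of 7 fell with LPS, 5 with IL-4 and 4 with the extract (median log2 fold changes -1.0, -1.30 and -1.25). Ccnb2, cyclin B2, a partner of Cdk1 at the entry into mitosis, stood at 5.30, 6.04 and 5.35 CPM in the control libraries. It was at 0.964, 0.280, 0.549 and 0.582 CPM with LPS, 0.948, 0.489 and 0.637 CPM with IL-4 and 0.963, 1.88 and 1.12 CPM with the extract. Every stimulated library lay below every control one, and the log2 fold changes were -3.49 ± 0.48 (adjusted p = 1.3e-07) with LPS, -2.95 ± 0.43 (adjusted p = 1.8e-06) with IL-4 and -2.23 ± 0.44 (adjusted p = 0.00019) with the extract. Cdk1, the kinase that drives mitosis, held 14.4, 10.3 and 16.1 CPM in control, 8.68, 7.85, 3.48 and 7.80 with LPS, 3.45, 4.47 and 3.63 with IL-4 and 6.47, 2.63 and 5.6 with the extract. Here too no stimulated library reached a control one, with log2 fold changes of -1.0 ± 0.27 (adjusted p = 0.0032), -1.81 ± 0.28 (adjusted p = 4.1e-06) and -1.34 ± 0.28 (adjusted p = 0.00035). Ccna2, cyclin A2, which acts in S phase and G2, was at 5.51, 6.04 and 6.96 CPM in control, 1.93, 1.22, 2.38 and 1.51 with LPS, 3.37, 1.47 and 2.42 with IL-4 and 2.61, 3.00 and 2.24 with the extract. It fell under each stimulus, with log2 fold changes of -1.86 ± 0.34 (adjusted p = 3.1e-05), -1.30 ± 0.32 (adjusted p = 0.0025) and -1.25 ± 0.34 (adjusted p = 0.0051). Plk1, polo-like kinase, also fell in all 3 comparisons (-2.52, -2.61 and -2.25), and its value with LPS was -3.50 without LPS 72 h replicate 4. The Aurora kinases of the spindle did not pass the test: Aurka was at -0.67, -0.88 and -0.92 and Aurkb at 0.34, -0.27 and -0.20 on the log2 scale.

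Among the spindle checkpoint, anaphase-promoting complex and survivin genes, 4 of 5 fell with LPS, all 5 with IL-4 and 4 with the extract (median log2 fold changes -1.94, -1.94 and -1.42). Birc5, survivin, a subunit of the chromosomal passenger complex, fell, with log2 fold changes of -1.98 ± 0.43 (adjusted p = 0.00033), -2.28 ± 0.43 (adjusted p = 0.00012) and -2.22 ± 0.46 (adjusted p = 0.00031). Ube2c, the ubiquitin-conjugating enzyme of the anaphase-promoting complex, changed by -1.29, -1.5 and -1.42, each a call. Cdc20, an activator of that complex, was a low gene at 1.48, 2.84 and 2.14 CPM in control, 1.93, 0.0934, 0.366 and 0.116 with LPS, 0.569, 0.419 and 0.446 with IL-4 and 0.504, 0.375 and 0.373 with the extract. Its groups lay entirely below control with IL-4 and the extract and overlapped control with LPS. Cdc20 changed by -2.93 ± 0.71 (adjusted p = 0.0011), -2.09 ± 0.60 (adjusted p = 0.0096) and -2.23 ± 0.65 (adjusted p = 0.0094) on the log2 scale, and by -3.60 with LPS without LPS 72 h replicate 1. Cdc20 with IL-4 was not called without control 72 h replicate 3 (edgeR adjusted p = 0.0622). The call of Cdc20 with the extract did not hold without control 72 h replicate 3 (edgeR adjusted p = 0.0515). Bub1, the checkpoint kinase whose promoter is shown above, fell with each stimulus (-1.94, -1.94 and -1.34). Bub1 with the extract was not called without control 72 h replicate 1 (edgeR adjusted p = 0.0822). Bub1b, a second checkpoint protein, fell with IL-4 (-0.89 ± 0.27, adjusted p = 0.012). The call of Bub1b with IL-4 did not hold without control 72 h replicate 1 or IL-4 72 h replicate 2 (edgeR adjusted p from 0.0658 to 0.215). It was at 0.05 with LPS. Bub1b with IL-4 and Bub1 with the extract lost the calls with no filter on low counts (adjusted p from 0.116 to 0.147). Bub1b with IL-4 lost the call with the compared groups fitted alone (adjusted p = 0.0612). Cdc20 with IL-4 and Bub1 and Cdc20 with the extract lost the calls without the 7 libraries rich in ambiguous reads (adjusted p from 0.0567 to 0.103).

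The spindle motors, kinetochore and mitotic chromatin group fell for 6 of 10 genes with LPS, 8 with IL-4 and 9 with the extract (median log2 fold changes -1.40, -1.74 and -1.73). Top2a, the topoisomerase that untangles sister chromatids, was at 48.3, 35.5 and 32.6 CPM in control, 18.3, 15.5, 11.5 and 13.7 with LPS, 12.9, 9.02 and 11.8 with IL-4 and 15.4, 14.6 and 15.3 with the extract. All stimulated libraries were below all control ones, with log2 fold changes of -1.47 ± 0.17 (adjusted p = 2.6e-09), -1.80 ± 0.17 (adjusted p = 2.2e-10) and -1.37 ± 0.17 (adjusted p = 9.4e-08). Cenpa fell, with log2 fold changes of -2.21 ± 0.24 (adjusted p = 9.7e-10), -1.45 ± 0.23 (adjusted p = 8.1e-06) and -2.11 ± 0.25 (adjusted p = 2.6e-08). Kif23, a motor of the central spindle in cytokinesis, fell, with log2 fold changes of -3.63, -1.69 and -2.28, and Cenpe, a kinetochore motor, with -2.68, -1.78 and -1.76. Kif11, the kinesin that pushes the spindle poles apart, likewise fell under all 3 stimuli (-2.0, -1.87 and -1.71).

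For some members of the spindle group the 3 comparisons gave unlike values, and IL-4 was not tested against the other stimuli. Mki67, the gene of the Ki-67 protein that coats mitotic chromosomes, stood at 20.8, 15.3 and 16.1 CPM in control and 3.49, 4.47 and 2.99 with IL-4, a log2 fold change of -2.28 ± 0.31 (adjusted p = 4.2e-07). In the LPS libraries it held 8.68, 11.0, 15.9 and 12.9 CPM, which overlap the control range and did not pass the test (-0.48 ± 0.29, adjusted p = 0.21). With the extract it was at 9.13, 8.63 and 10.8 CPM (-0.87 ± 0.30, adjusted p = 0.028). Mki67 with the extract was not called without control 72 h replicate 1 or cell extract 72 h replicates 2 or 3 (edgeR adjusted p from 0.073 to 0.181). Nusap1, a spindle microtubule protein, fell with IL-4 (-2.1) and the extract (-1.81) and was at -0.22 with LPS, and extract against LPS differed by -1.58 ± 0.35 (adjusted p = 0.00068). Tpx2, which activates the kinase Aurka on the spindle, fell with LPS (-0.91 ± 0.23, adjusted p = 0.0015) and was at 0.40 with IL-4, not a call (0.65, adjusted p = 0.02 without IL-4 72 h replicate 3, a call). Tpx2 also fell with the extract, a call not kept in every fit with 1 library left out. Cenpf, a kinetochore protein, was at 25.2, 22.0 and 26.8 CPM in control and 79.0, 3.92, 12.3 and 11.5 with LPS, where replicate 1 alone lay above control. Its log2 fold change with LPS was -0.38 ± 0.56, adjusted p = 0.67 with that library, and -1.5, adjusted p = 0.008, a call, without it. Cenpf fell with IL-4 and with the extract, and neither call was kept in every fit with 1 library left out. Kif20a was at -1.33 with LPS, not a call. Mki67 with the extract lost the call without the 7 libraries rich in ambiguous reads (adjusted p = 0.0847).

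**Figure D3:**
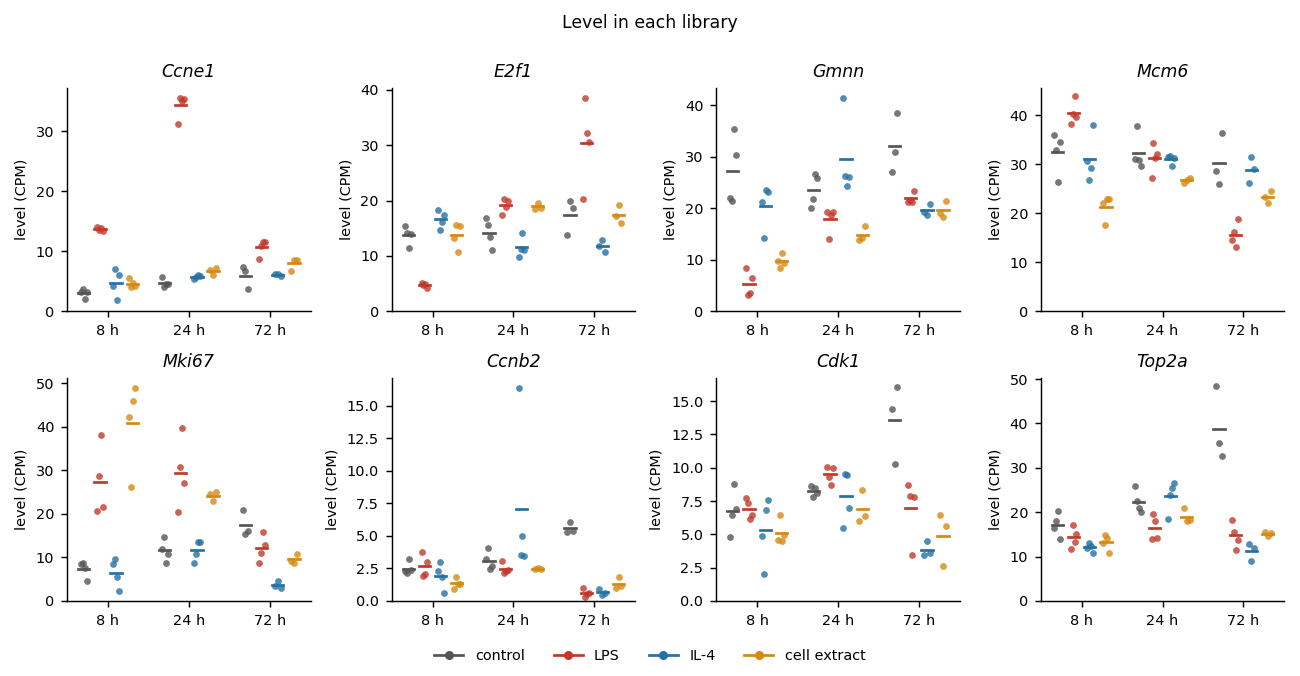
Level (CPM, y axes from 0) of 8 members in each library at 8, 24 and 72 h, coloured by stimulus; points are libraries and bars group means. Ccnb2 at 72 h lies between 5.30 and 6.04 CPM in control and at or below 1.88 CPM with any stimulus, while Ccne1 peaks with LPS at 24 h, between 31.3 and 35.6 CPM.

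Nucleotide supply and fork factors fell for 5 of 6 genes with LPS, 4 with IL-4 and 6 with the extract (median log2 fold changes -1.03, -1.17 and -1.11). Rrm2, the small subunit of ribonucleotide reductase, was at 8.27, 6.4 and 5.35 CPM in control, 0.964, 2.15, 2.75 and 1.86 with LPS, 2.73, 1.68 and 2.1 with IL-4 and 2.43, 3.00 and 2.71 with the extract. Its groups lay entirely below control with LPS, IL-4 and the extract, and it fell, with log2 fold changes of -1.69 ± 0.29 (adjusted p = 9.5e-06), -1.64 ± 0.28 (adjusted p = 2.9e-05) and -1.37 ± 0.29 (adjusted p = 0.00046). Uhrf1, which guides maintenance DNA methylation at the fork, fell, with log2 fold changes of -1.86, -1.98 and -1.45. Tk1, thymidine kinase, stood at 8.27, 7.82 and 2.68 CPM in control, 8.68, 4.21, 3.48 and 3.26 with LPS, 1.97, 2.17 and 1.72 with IL-4 and 2.34, 1.88 and 2.33 with the extract. Its groups lay entirely below control with IL-4 and the extract and overlapped control with LPS: it fell with IL-4 (-1.74 ± 0.35, adjusted p = 0.00029) and the extract (-1.54 ± 0.37, adjusted p = 0.0015), and its change with LPS did not pass (-0.63 ± 0.34, adjusted p = 0.17). It passed with LPS without LPS 72 h replicate 1 (-0.88, adjusted p = 0.034) or control 72 h replicate 4 (-0.93, adjusted p = 0.041). Uhrf1 with the extract lost the call without the 7 libraries rich in ambiguous reads (adjusted p = 0.111).

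Pcna, the sliding clamp of the replication fork, held 89.5, 117 and 117 CPM in control, 50.1, 59.5, 63.4 and 73.1 with LPS, 111, 85.0 and 109 with IL-4 and 67.7, 79.2 and 76.6 with the extract. It fell with LPS (-0.78 ± 0.15, adjusted p = 5.3e-05) and with the extract (-0.53 ± 0.16, adjusted p = 0.011). The call of Pcna with the extract did not hold without control 72 h replicates 3 or 4 or cell extract 72 h replicate 2 (edgeR adjusted p from 0.0585 to 0.0747). With IL-4 it was close to control (-0.08 ± 0.16, adjusted p = 0.75). Tyms, thymidylate synthase, was at 12.1, 11.0 and 13.4 CPM in control, 3.86, 8.69, 6.96 and 9.55 with LPS, 10.6, 7.83 and 9.36 with IL-4 and 8.25, 8.63 and 8.31 with the extract. Its log2 fold changes were -0.60 ± 0.18 (adjusted p = 0.011) with LPS, -0.38 ± 0.18 (adjusted p = 0.13) with IL-4 and -0.53 ± 0.19 (adjusted p = 0.033) with the extract. Tyms with LPS was not called without control 72 h replicate 1 or LPS 72 h replicate 3 (edgeR adjusted p from 0.0641 to 0.0891). Tyms with the extract missed the threshold in 4 fits with 1 library left out (edgeR adjusted p from 0.0927 to 0.118). Rrm1 fell, with log2 fold changes of -1.28, -0.70 and -0.85. Rrm1 with IL-4 was not called without control 72 h replicate 1 or IL-4 72 h replicate 3 (edgeR adjusted p from 0.0508 to 0.063). Reads of Pcna and Tyms, and of Ccnb1 and Ccnb2 among the mitotic cyclins, may be shared with pseudogene copies, so their levels are uncertain to that extent. Tyms with LPS and Pcna and Tyms with the extract lost the calls with no filter on low counts (adjusted p from 0.196 to 0.452). Tyms with LPS lost the call with the compared groups fitted alone (adjusted p = 0.101). Pcna and Tyms with the extract lost the calls without the 7 libraries rich in ambiguous reads (adjusted p from 0.0696 to 0.129).

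In the group of origin licensing and the helicase, 7 of 9 genes fell with LPS at 72 h. With IL-4 2 fell and 1 rose, and with the extract 2 fell (median log2 fold changes -0.79, -0.32 and -0.44). Over all tested genes 15.4%, 10.5% and 12.2% fell, and the counts with IL-4 and the extract are too small to set apart from these. Of the 7 falls with LPS, those of Mcm2 and Mcm6 alone were kept in every fit with 1 library left out. Mcm6 stood at 28.6, 25.9 and 36.4 CPM in control, 14.5, 16.2, 13.2 and 18.8 with LPS, 26.2, 31.5 and 29.0 with IL-4 and 23.3, 22.1 and 24.5 with the extract. The LPS libraries were all below the control ones and so were those with the extract, while the IL-4 libraries overlapped control, with log2 fold changes of -0.91 ± 0.14 (adjusted p = 1.8e-06), -0.05 ± 0.14 (adjusted p = 0.82) and -0.36 ± 0.15 (adjusted p = 0.066). Mcm2, another helicase subunit, fell with LPS (-0.77 ± 0.22, adjusted p = 0.0074), rose with IL-4 (0.91 ± 0.20, adjusted p = 0.00086) and was at 0.13 with the extract. It held 7.0, 7.82 and 8.03 CPM in control, 2.89, 5.23, 4.03 and 4.31 with LPS and 16.2, 12.2 and 14.1 with IL-4. The groups with LPS and IL-4 did not overlap. Mcm2 with LPS lost the call with no filter on low counts and also with the compared groups fitted alone (adjusted p from 0.0594 to 0.119).

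Mcm5, one more helicase subunit, was at 4.45, 10.7 and 8.56 CPM in control, 2.89, 3.92, 4.58 and 5.12 with LPS, 4.81, 5.24 and 4.20 with IL-4 and 4.13, 1.5 and 3.46 with the extract. Its log2 fold changes were -0.79 ± 0.27 (adjusted p = 0.021), -0.67 ± 0.26 (adjusted p = 0.058) and -1.15 ± 0.28 (adjusted p = 0.0018), of which IL-4 missed the threshold, though not without control 72 h replicate 1 (-1.01, adjusted p = 0.0076). The call of Mcm5 with LPS did not hold without control 72 h replicates 3 or 4 or LPS 72 h replicate 2 (edgeR adjusted p from 0.0524 to 0.323). Mcm5 with the extract was not called without control 72 h replicate 3 (edgeR adjusted p = 0.107). Mcm3, Mcm4, Mcm7 and Cdc45, which travels with the helicase, fell with LPS (-0.67, -0.75, -0.87 and -1.30). The call of Mcm3 with LPS did not hold without control 72 h replicate 1 or LPS 72 h replicate 4 (edgeR adjusted p from 0.0515 to 0.149). Mcm4 with LPS was not called without control 72 h replicate 1 or LPS 72 h replicate 3 (edgeR adjusted p from 0.0524 to 0.0738). The call of Mcm7 with LPS did not hold without control 72 h replicate 4 (edgeR adjusted p = 0.102). Cdc45 with LPS was not called without control 72 h replicate 3 (edgeR adjusted p = 0.0692). Gmnn, geminin, which blocks a second round of licensing by binding Cdt1, stood at 26.9, 30.9 and 38.5 CPM in control, 21.2, 21.7, 21.2 and 23.4 with LPS, 19.3, 18.7 and 20.8 with IL-4 and 19.1, 18.4 and 21.5 with the extract. All 3 groups lay entirely below control. It fell with IL-4 (-0.69 ± 0.21, adjusted p = 0.015) and the extract (-0.68 ± 0.22, adjusted p = 0.018), and LPS just missed the threshold (-0.52 ± 0.21, adjusted p = 0.05008). The call of Gmnn with IL-4 did not hold without control 72 h replicate 4 or IL-4 72 h replicate 3 (edgeR adjusted p from 0.0508 to 0.1). Gmnn with the extract was not called without control 72 h replicate 4 or cell extract 72 h replicates 2 or 3 (edgeR adjusted p from 0.052 to 0.112). Cdc6, which helps to load the helicase, was the lowest member for its length and fell with IL-4 (-1.51 ± 0.53, adjusted p = 0.036). Cdc6 with IL-4 missed the threshold in 5 fits with 1 library left out (edgeR adjusted p from 0.0695 to 0.0993). Cdc45 and Mcm5 with LPS, Cdc6 with IL-4 and Gmnn with the extract lost the calls with no filter on low counts (adjusted p from 0.0681 to 0.217). Cdc45, Mcm3, Mcm4 and Mcm5 with LPS lost the calls with the compared groups fitted alone (adjusted p from 0.0664 to 0.117). Mcm4 and Mcm5 with LPS, Cdc6 and Gmnn with IL-4 and Gmnn and Mcm5 with the extract lost the calls without the 7 libraries rich in ambiguous reads (adjusted p from 0.0513 to 0.303).

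The E2F factors and the G1/S cyclin-kinase pair held risen as well as fallen genes at 72 h. With LPS 2 of 5 rose and 2 fell, and their median log2 fold change was 0.46, against -0.54 with IL-4 (2 fell) and 0.00 with the extract (1 fell). Over all tested genes 31.5%, 23.7% and 26.3% were called. E2f1, an activator of S-phase genes, was at 13.8, 19.9 and 18.7 CPM in control, 20.2, 38.6, 32.2 and 30.6 with LPS, 11.9, 12.9 and 10.6 with IL-4 and 17.2, 19.1 and 15.9 with the extract. The LPS libraries lay above every control one and the IL-4 libraries below, with log2 fold changes of 0.88 ± 0.17 (adjusted p = 4.6e-05), -0.54 ± 0.17 (adjusted p = 0.021) and, with the extract, 0.00 ± 0.18 (adjusted p = 0.99). In 4 fits with 1 library left out E2f1 with IL-4 was not called (edgeR adjusted p from 0.0562 to 0.159). Ccne1, cyclin E1, the partner of Cdk2 at the start of S phase, held 7.42, 6.75 and 3.75 CPM in control and 8.68, 10.9, 11.5 and 11.5 with LPS, a log2 fold change of 0.81 ± 0.21 (adjusted p = 0.0022), which fell short of the threshold when these 2 groups were fitted alone (adjusted p = 0.0573). It was at -0.03 with IL-4 and 0.32 with the extract, neither a call. Its close relative Ccne2 fell in all 3 comparisons (-1.14, -1.12 and -1.31). The call of Ccne2 with LPS did not hold without control 72 h replicate 1 or LPS 72 h replicate 2 (edgeR adjusted p from 0.0669 to 0.0961). Ccne2 with IL-4 was not called without control 72 h replicates 1 or 3 or IL-4 72 h replicate 3 (edgeR adjusted p from 0.0756 to 0.125). The call of Ccne2 with the extract did not hold without control 72 h replicate 1 or cell extract 72 h replicates 2 or 4 (edgeR adjusted p from 0.0572 to 0.108). E2f8, an atypical E2F that represses transcription, fell with LPS (-1.12 ± 0.36, adjusted p = 0.014). E2f8 with LPS was not called without control 72 h replicate 3 or LPS 72 h replicate 2 (edgeR adjusted p from 0.0683 to 0.0827). Cdk2 stood at 11.2, 12.8 and 13.4 CPM in control and 8.68, 20.6, 16.3 and 17.5 with LPS and did not pass in any of the 3 comparisons (0.46, 0.38 and 0.50). With the extract it passed without cell extract 72 h replicate 3 (0.66, adjusted p = 0.05). Ccne2 and E2f8 with LPS, Ccne2 and E2f1 with IL-4 and Ccne2 with the extract lost the calls with no filter on low counts (adjusted p from 0.0515 to 0.281). Ccne2 with LPS and E2f1 with IL-4 lost the calls with the compared groups fitted alone (adjusted p from 0.0669 to 0.101). E2f8 with LPS and Ccne2 and E2f1 with IL-4 lost the calls without the 7 libraries rich in ambiguous reads (adjusted p from 0.0653 to 0.189).

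Sums of mesothelial, fibroblast, smooth muscle and muscle markers lay below control at 72 h under each stimulus. B cell, T cell and neutrophil sums did not do so throughout, and dendritic cell and mast cell sums overlapped control under each stimulus. The summed level of 8 mesothelial markers was 69.0 to 103 CPM in the control libraries, 1.93 to 5.49 with LPS, 4.33 to 17.5 with IL-4 and 1.13 to 3.08 with the extract, and 7, 4 and 7 of the 7 that could be tested fell. Over all tested genes 15.4%, 10.5% and 12.2% fell in these 3 comparisons, which also applies to the marker counts that follow. Fibroblast markers summed to 489.9 to 1092 CPM in control, 161 to 292 with LPS, 90.7 to 204 with IL-4 and 198 to 232 with the extract, and 6 of 8 fell under each. Smooth muscle markers summed to 67.6 to 75.7 CPM in control and at most 4.88 CPM in any stimulated library, both of the 2 tested genes fell under each stimulus, and Myh11 and Cnn1 were at 0 in all IL-4 72 h libraries. The 6 skeletal and cardiac muscle markers, listed because H9c2 cells are myoblasts, summed to 19.6 to 23.0 CPM in control, 3.86 to 8.97 with LPS, 1.61 to 3.64 with IL-4 and 2.52 to 5.09 with the extract, and 1 of 2 tested genes fell under each. Most of that control sum was Des alone, at 20.6, 16.4 and 21.4 CPM. Actc1, Myog and Myl1 were at 0 in every control 72 h library. B cell markers summed to 5.33 to 7.63 CPM in control, 3.84 to 13.5 with LPS, 2.45 to 4.09 with IL-4 and 0.751 to 6.19 with the extract. T cell markers summed to 1.07 to 1.48 CPM in control, 0.964 to 3.73 with LPS, 0.573 to 1.61 with IL-4 and 1.68 to 2.63 with the extract. Within control cultures, 3 of 7 tested mesothelial, 5 of 8 fibroblast and 2 of 2 tested smooth muscle markers rose from 24 to 72 h. Over all tested genes 8.24% rose at this step. Macrophage markers summed to 9702 to 17627 CPM in control, 12516 to 21691 with LPS, 11169 to 17110.0 with IL-4 and 26580.0 to 30720.0 with the extract, so the labelled cell type was present in every one of these libraries. No mesothelial, fibroblast or macrophage marker was at 0 throughout a 72 h group. The part of these other cells in the 72 h differences of the members was not tested.

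**Figure D4:**
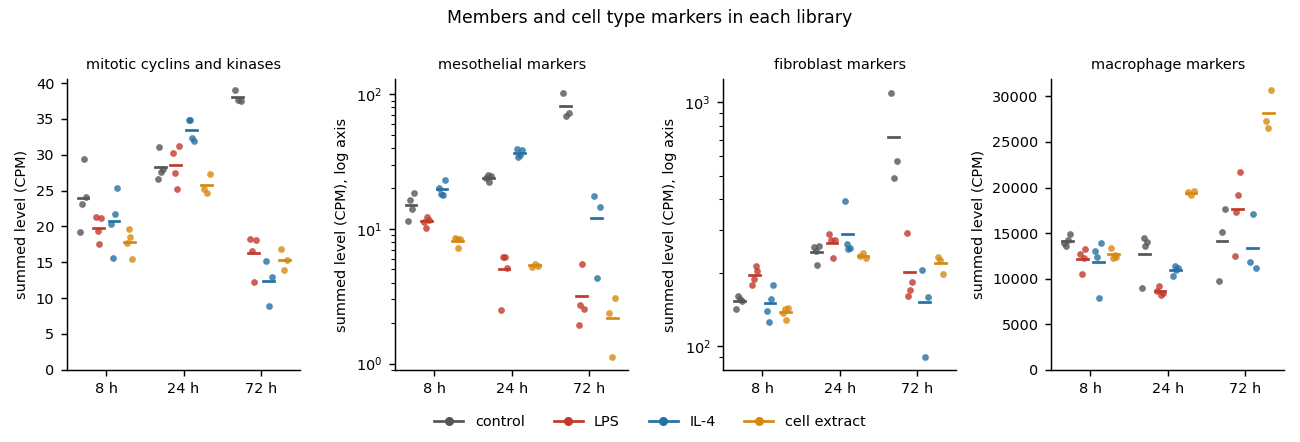
Summed level (CPM) of the mitotic cyclins and kinases and of mesothelial, fibroblast and macrophage markers in each library at 8, 24 and 72 h, coloured by stimulus; the mesothelial and fibroblast axes are logarithmic, points are libraries and bars group means. At 72 h the control libraries are highest in the first 3 panels, with mesothelial sums of 69.0 to 103 CPM against at most 17.5 CPM in a stimulated library, and not in the macrophage panel.

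At 8 h LPS moved members in both directions: 6 rose and 13 fell, where 45.4% of all tested genes were called (21.3% rose and 24.1% fell). The members' median log2 fold change was -0.24 against 0.00 over all genes. That share of calls, 19 of 42, is close to the background. Ccne1 stood at 3.15, 3.72, 2.08 and 3.20 CPM in control and 14.1, 13.6, 13.8 and 13.3 with LPS. All LPS libraries lay above all control ones, with a log2 fold change of 2.12 ± 0.17 (adjusted p = 1.6e-13). E2f1 went the other way, from 15.4, 14.2, 11.5 and 14 CPM in control to 5.17, 4.69, 4.99 and 4.14 with LPS (-1.54 ± 0.16, adjusted p = 2.0e-10). Gmnn was at 22.0, 21.4, 35.3 and 30.3 CPM in control and 8.34, 3.08, 3.60 and 6.44 with LPS, again without overlap (-2.44 ± 0.21, adjusted p = 8.4e-13). Cdk2, at 15.2, 18.5, 14.6 and 15.8 CPM in control and 8.91, 8.21, 6.16 and 6.44 with LPS, fell while its cyclin rose (-1.13 ± 0.21, adjusted p = 1.4e-05).

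The origin licensing group held the most falls with LPS at 8 h, with 6 of 9 genes, and its sum was 139 ± 2.55 CPM (SD, n = 4) in control and 92.0 ± 7.43 CPM (SD, n = 4) with LPS. Beside Gmnn these were Cdc45 (-1.83), Mcm2 (-1.10), Mcm7 (-1.09), Mcm3 (-0.89) and Mcm4 (-0.66, all log2). Mcm6 was the exception with a small rise (0.32 ± 0.12, adjusted p = 0.023). The call of Mcm6 did not hold without control 8 h replicate 3 or LPS 8 h replicates 2 or 3 (edgeR adjusted p from 0.0542 to 0.132). Of the nucleotide supply genes, Tyms rose from 8.78, 8.83, 7.99 and 5.97 CPM in control to 17.0, 17.0, 14.5 and 15.7 with LPS (1.01 ± 0.15, adjusted p = 3.5e-07), while Rrm1 fell (-0.72). E2f8 rose (0.91 ± 0.25, adjusted p = 0.0025). E2f8 was not called without LPS 8 h replicate 3 (edgeR adjusted p = 0.0503). Mcm6 lost the call with no filter on low counts and also without the 7 libraries rich in ambiguous reads (adjusted p from 0.211 to 0.416).

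Mitotic genes split at 8 h with LPS. Mki67 was at 8.59, 8.79, 7.51 and 4.58 CPM in control and 20.7, 28.7, 38.0 and 21.6 with LPS, with every LPS library above every control one (1.89 ± 0.24, adjusted p = 1.6e-08), and Tpx2 rose as well (1.64 ± 0.17, adjusted p = 6.3e-11). Cenpa (-1.0 ± 0.20, adjusted p = 7.7e-05), Kif23 (-1.19) and Aurkb (-1.21) fell, as did Bub1b (-0.65). The call of Bub1b did not hold without control 8 h replicate 2 or LPS 8 h replicate 4 (edgeR adjusted p from 0.0884 to 0.1). Top2a, at 16.4, 18.1, 20.3 and 14 CPM in control and 11.8, 17.1, 13.4 and 15.2 with LPS, missed the threshold (-0.25 ± 0.15, adjusted p = 0.19). Ccnb2 held 2.29, 2.11, 3.20 and 2.34 CPM in control and 3.74, 1.91, 2.09 and 2.99 with LPS, and Cdk1 4.77, 6.48, 8.79 and 6.93 and 7.76, 7.33, 6.16 and 6.44, and the groups of both genes overlapped. At 8 h the mesothelial sums were 11.6 to 18.5 CPM in control and 10.3 to 12.3 with LPS, and the fibroblast sums 143 to 161 and 179 to 214. B cell markers summed to 6.82 to 9.2 CPM in control and 18.6 to 22.4 with LPS, T cell markers to 1.39 to 2.28 and 3.74 to 6.74, both without overlap, and dendritic cell markers to 3.09 to 8.88 and 8.36 to 24.3. Their part in the 8 h differences was not tested. Bub1b lost the call with no filter on low counts and also with the compared groups fitted alone (adjusted p from 0.0673 to 0.0875).

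The extract of H9c2 cells at 8 h called 15 members, 4 risen and 11 fallen, where 30.2% of all tested genes were called (13% rose and 17.2% fell). They had a median log2 fold change of -0.30 against -0.06 over all genes. Mki67 was at 42.1, 26.1, 46.0 and 48.9 CPM, above every control library, a log2 fold change of 2.44 ± 0.24 (adjusted p = 7.5e-11). Cenpa, its neighbour in role, fell, with a log2 fold change of -1.82 ± 0.21 (adjusted p = 3.1e-09). Gmnn, at 9.80, 8.46, 11.3 and 9.37 CPM, fell below every control library (-1.48 ± 0.19, adjusted p = 2.9e-08), and Mcm6, at 35.9, 32.9, 26.4 and 34.5 CPM in control and 22.0, 17.7, 22.9 and 22.9 with the extract, fell as well (-0.61 ± 0.12, adjusted p = 7.3e-05). Cdc45, Mcm2 and Mcm7 fell too (-1.11, -0.63 and -0.79), and the origin licensing sum was 96.6 ± 7.91 CPM (SD, n = 4). Tyms (0.64 ± 0.15, adjusted p = 0.00076) and E2f8 (0.97 ± 0.25, adjusted p = 0.0019) rose. Ccne1, at 5.64, 4.01, 4.73 and 4.18 CPM, rose by 0.55 ± 0.18 (adjusted p = 0.023). Ccne1 was not called without cell extract 8 h replicate 1 (edgeR adjusted p = 0.155). E2f1, at 13.3, 15.5, 10.8 and 15.4 CPM, was at 0.01. Of the 15 calls, 9 were kept in every fit with 1 library left out, and 10 members were called without the 7 libraries rich in ambiguous reads. Mesothelial markers summed to 7.19 to 8.59 CPM and fibroblast markers to 128 to 143 CPM and muscle markers to 3.55 to 8.98 CPM against 5.91 to 8.21 in control. With the extract B cell markers summed to 6.05 to 15.1 CPM and T cell markers to 3.42 to 4.01 CPM. Ccne1 and Mcm2 lost the calls with no filter on low counts (adjusted p from 0.0693 to 0.157). Ccne1 lost the call with the compared groups fitted alone (adjusted p = 0.0511). Ccne1 and Mcm7 lost the calls without the 7 libraries rich in ambiguous reads (adjusted p from 0.0561 to 0.0895).

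Extract and LPS differed at 8 h for 11 members, 5 higher and 6 lower with the extract, where 29.1% of all tested genes were called (14% rose and 15.1% fell). That share of members is close to the background. Tpx2 was lower with the extract (-1.87 ± 0.17, adjusted p = 9.3e-12) and so was Ccne1 (-1.57 ± 0.17, adjusted p = 9.2e-10), while E2f1 (1.54 ± 0.17, adjusted p = 5.2e-10) and Gmnn (0.95 ± 0.22, adjusted p = 0.00077) were higher. Helicase subunits went both ways, Mcm3 higher (0.76) and Mcm6 lower (-0.93). Pcna, at 164, 145, 148 and 170.3 CPM with LPS and 109, 109, 99.3 and 95.4 with the extract, was lower with the extract (-0.60 ± 0.14, adjusted p = 0.00049), and so was Cenpe (-1.15). At 24 h 2 members differed, where 16.8% of all tested genes were called (8.06% rose and 8.76% fell). They were Ccne1 (-2.35 ± 0.18, adjusted p = 3.8e-13) and Tpx2 (-0.79 ± 0.18, adjusted p = 0.0014), both lower with the extract. No member was higher at 24 h in edgeR's test, at an unadjusted p under 0.05 or in DESeq2, and DESeq2 also called 2 lower. At 72 h 5 were higher and 2 lower with the extract, where 22.4% of all tested genes were called (11% rose and 11.4% fell). Mcm2 (0.90), Mcm6 (0.56) and Cdc45 (1.37) were higher, as were Mcm7 and Cenpe, and E2f1 (-0.88) and Nusap1 were lower. The call of Mcm7 did not hold without cell extract 72 h replicates 2 or 4 (edgeR adjusted p from 0.0618 to 0.08). Cenpe was not called without LPS 72 h replicates 2 or 4 or cell extract 72 h replicate 3 (edgeR adjusted p from 0.102 to 0.209). Cdc45 and Cenpe at 72 h lost the calls with the compared groups fitted alone (adjusted p from 0.0509 to 0.148).

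At 24 h fewer members were called. With LPS, 3 rose and 8 fell, where 37.9% of all tested genes were called (18.6% rose and 19.3% fell). The median log2 fold change was -0.26 against -0.07 over all genes. Ccne1 reached its highest level, 31.3, 35.6, 35 and 35.5 CPM with LPS against 5.68, 4.07, 4.50 and 4.63 in control. No other member had as small a p in any comparison with control, and the log2 fold change was 2.89 ± 0.17 (adjusted p = 1.4e-17). Mki67, at 11.9, 14.8, 8.82 and 10.9 CPM in control and 20.4, 30.8, 39.6 and 27.0 with LPS, rose (1.37 ± 0.24, adjusted p = 6.7e-06), while Cenpa (-1.65 ± 0.20, adjusted p = 8.7e-09), Kif23 (-1.11) and Mcm2 (-0.62) fell. E2f1, low at 8 h, was at 17.3, 20.4, 18.9 and 19.9 CPM with LPS and 16.8, 15.5, 13.4 and 11.1 in control (0.45 ± 0.14, adjusted p = 0.0094). The call of E2f1 did not hold without control 24 h replicate 4 (edgeR adjusted p = 0.0665). Those 5 calls of Ccne1, Mki67, Cenpa, Kif23 and Mcm2 were kept in every fit with 1 library left out, and the other 6 were not. Mesothelial markers fell for 5 of 7 tested genes here and for 6 of 7 with the extract, where 19.3% and 10.4% of all tested genes fell. E2f1 lost the call with no filter on low counts (adjusted p = 0.134).

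With the extract at 24 h, 3 members rose and 3 fell, where 22.1% of all tested genes were called (11.7% rose and 10.4% fell). The median log2 fold change was -0.19 against -0.06. Cenpa fell (-1.83 ± 0.22, adjusted p = 9.2e-09), Mki67, at 24.5, 22.9 and 25 CPM, rose (1.06 ± 0.25, adjusted p = 0.00095), and Gmnn, at 20.01, 21.8, 26.7 and 25.9 CPM in control and 13.8, 14.2 and 16.5 with the extract, fell (-0.68 ± 0.19, adjusted p = 0.0076). These 3 calls were kept in every fit with 1 library left out. Ccne1 (0.54) and E2f1 (0.43) rose and Pcna (-0.39) fell, and none of these 3 calls held in every such fit. In 5 fits with 1 library left out Ccne1 was not called (edgeR adjusted p from 0.0551 to 0.11). E2f1 missed the threshold in 5 fits with 1 library left out (edgeR adjusted p from 0.0652 to 0.153). In 6 fits with 1 library left out Pcna was not called (edgeR adjusted p from 0.083 to 0.15). Ccne1, E2f1 and Pcna lost the calls with no filter on low counts (adjusted p from 0.159 to 0.381). Gmnn and Pcna lost the calls without the 7 libraries rich in ambiguous reads (adjusted p from 0.0738 to 0.309).

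IL-4, which drives the alternative activation of macrophages, moved few members before 72 h, and few of all tested genes were called then too. At 8 h 2 rose and 1 fell, where 8.33% of all tested genes were called (4.29% rose and 4.04% fell). The share of called members at 8 h is close to the background. The median log2 fold change was -0.09 against -0.04 over all genes. Mcm2 was at 10.7, 10.8, 7.35 and 9.70 CPM in control and 13.4, 17.7, 15.5 and 17.7 with IL-4, and its rise (0.71 ± 0.17, adjusted p = 0.0032) was kept in every fit with 1 library left out. Kif23 (1.0 ± 0.31, adjusted p = 0.037) and Top2a (-0.52 ± 0.16, adjusted p = 0.042) also passed. Kif23 missed the threshold in 7 fits with 1 library left out (edgeR adjusted p from 0.059 to 0.106). In 6 fits with 1 library left out Top2a was not called (edgeR adjusted p from 0.0573 to 0.146). At 24 h 2 rose and none fell, where 9.5% of all tested genes were called (4.74% rose and 4.76% fell). The median was 0.14 against -0.03. At an unadjusted p under 0.05, 5 rose and none fell, and DESeq2 called 2 risen and none fallen. The 2 were Tyms (0.56 ± 0.16, adjusted p = 0.015) and Tpx2 (0.56 ± 0.17, adjusted p = 0.032). Neither held throughout. The call of Tyms did not hold without control 24 h replicate 1 or IL-4 24 h replicate 2 (edgeR adjusted p from 0.0596 to 0.0598). In 4 fits with 1 library left out Tpx2 was not called (edgeR adjusted p from 0.0723 to 0.132). Ccnb2 stood at 16.3, 3.51, 4.99 and 3.44 CPM at 24 h with IL-4 against 3.21, 4.07, 2.42 and 2.65 in control, and only the first, shallowest IL-4 library lay outside the control range by a wide margin. Kif23, Mcm2 and Top2a at 8 h and Tpx2 and Tyms at 24 h lost the calls with no filter on low counts (adjusted p from 0.0826 to 0.209). Top2a at 8 h and Tpx2 and Tyms at 24 h lost the calls with the compared groups fitted alone (adjusted p from 0.0563 to 0.167). Top2a at 8 h and Tpx2 at 24 h lost the calls without the 7 libraries rich in ambiguous reads (adjusted p from 0.0724 to 0.171). Top2a at 8 h lost the call with RLE size factors and also in DESeq2 (adjusted p from 0.0644 to 0.0657). Kif23 at 8 h and Tpx2 and Tyms at 24 h lost the calls without replicate 1 of control 8 h, control 24 h and IL-4 24 h, whose LPS-induced genes stood above the other libraries of their groups (adjusted p from 0.084 to 0.143).

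Over time in control cultures, no member passed the test from 8 to 24 h, where 0.537% of all tested genes were called (0.323% rose and 0.213% fell). At this step 4 rose and none fell at an unadjusted p under 0.05, and DESeq2 called none. From 24 to 72 h 7 members rose and none fell, where 18% of all tested genes were called (8.24% rose and 9.71% fell). At an unadjusted p under 0.05, 15 rose and 2 fell, and DESeq2 called 8 risen. Top2a rose from 25.9, 22.6, 20.9 and 19.9 CPM at 24 h to the 72 h values given above (0.83 ± 0.16, adjusted p = 0.0006). Nusap1 (1.44 ± 0.34, adjusted p = 0.0038) and Tyms (0.87 ± 0.18, adjusted p = 0.0013) rose too, and these 3 calls were kept in every fit with 1 library left out. Cdk1, at 8.64, 7.81, 8.47 and 8.13 CPM at 24 h, rose by 0.71 ± 0.26 (adjusted p = 0.048). Cdk1 missed the threshold in 6 fits with 1 library left out (edgeR adjusted p from 0.0629 to 0.168). Cenpf and Ccne2 rose as well. In 6 fits with 1 library left out Cenpf was not called (edgeR adjusted p from 0.0633 to 0.109). Ccne2 missed the threshold in 4 fits with 1 library left out (edgeR adjusted p from 0.0903 to 0.137). Cenpe rose by 1.04 ± 0.28 (adjusted p = 0.0097). Cenpe was not called without control 72 h replicate 1 (edgeR adjusted p = 0.234). Mesothelial, fibroblast and smooth muscle markers rose between the same libraries, as given above. Ccne2 and Cdk1 lost the calls with no filter on low counts (adjusted p from 0.111 to 0.169). Cenpf lost the call without the 7 libraries rich in ambiguous reads (adjusted p = 0.0511). Cdk1 and Cenpf lost the calls without replicate 1 of control 8 h, control 24 h and IL-4 24 h, whose LPS-induced genes stood above the other libraries of their groups (adjusted p from 0.0535 to 0.0701).

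In stimulated cultures the step from 24 to 72 h was downward. With LPS, 2 rose and 22 fell, where 35.2% of all tested genes were called (18.9% rose and 16.3% fell). From 8 to 24 h, 10 had risen and 6 fallen, where 37.2% of all tested genes were called (16.7% rose and 20.5% fell), a share close to that of the members. E2f1 rose in both steps, by 2.01 ± 0.16 (adjusted p = 1.5e-12) and 0.72 ± 0.14 (adjusted p = 0.00013), and Nusap1 rose in the second (1.12). Gmnn rose from 8 to 24 h (1.83 ± 0.21, adjusted p = 9.4e-09), to 19.3, 14.1, 18.7 and 19.3 CPM. Ccne1 rose in the first step (1.33 ± 0.16, adjusted p = 1.1e-08) and fell in the second (-1.65 ± 0.16, adjusted p = 3.4e-10). Ccnb2 (-2.30), Kif23 (-1.82) and Cenpe (-1.49) were among those that fell from 24 to 72 h, and 21 of the 24 calls were kept in every fit with 1 library left out. From 8 to 24 h, 9 of the 16 calls were kept. Mesothelial sums were 2.52 to 6.21 CPM at 24 h and 1.93 to 5.49 CPM at 72 h with LPS, and fibroblast sums 230.3 to 288 and 161 to 292.

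With IL-4, 22 members fell from 24 to 72 h and none rose, where 12.5% of all tested genes were called (6.97% rose and 5.52% fell). In all 29 fell and none rose at an unadjusted p under 0.05, and DESeq2 called 27 fallen. Ccnb2 fell, with a log2 fold change of -2.95 ± 0.41 (adjusted p = 1.4e-06) and Mki67, at 8.71, 10.7, 13.6 and 13.6 CPM at 24 h, with -1.74 ± 0.28 (adjusted p = 2.2e-05). Top2a, at 18.5, 24.0, 25.5 and 26.6 CPM at 24 h, fell, with a log2 fold change of -1.11 ± 0.16 (adjusted p = 3.2e-06), after a rise from 8 to 24 h (1.03 ± 0.17, adjusted p = 0.00021). That first step held 4 risen members and none fallen, where 3.07% of all tested genes were called (1.55% rose and 1.52% fell). In all 17 rose and 2 fell at an unadjusted p under 0.05, and DESeq2 called 6 risen and 1 fallen. Markers of other cells also differed between these times with IL-4. Mesothelial sums were 18 to 23.1 CPM at 8 h, 34.2 to 39.2 at 24 h and 4.33 to 17.5 at 72 h, and fibroblast sums 126 to 177, 249.9 to 393 and 90.7 to 204, each without overlap between neighbouring times. Their part in these changes was not tested. With the extract 8 rose and 2 fell from 8 to 24 h, where 18.9% of all tested genes were called (11.4% rose and 7.5% fell). From 24 to 72 h 11 fell and none rose, where 14.6% of all tested genes were called (7.13% rose and 7.49% fell), with 21 fallen and none risen at an unadjusted p under 0.05 and 12 fallen in DESeq2. Mki67 fell from 24 to 72 h with the extract (-1.32 ± 0.27, adjusted p = 0.00063). Mesothelial sums with the extract were 5.26 to 5.54 CPM at 24 h and 1.13 to 3.08 at 72 h, and fibroblast sums 229.8 to 241 and 198 to 232. Top2a with IL-4 from 8 to 24 h lost the call with the compared groups fitted alone (adjusted p = 0.0575). Many calls over time were not kept in every fit with 1 library left out. With IL-4, 1 of 4 from 8 to 24 h and 15 of 22 from 24 to 72 h were kept. With the extract these were 2 of 10 and 3 of 11.

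The change of each stimulus effect between 8 and 72 h was tested as a difference of log2 fold changes. With LPS it was called for 26 members, 22 lower and 4 higher at 72 h, where 30% of all tested genes were called (15.7% rose and 14.3% fell). With IL-4 it was called for 18, all lower, where 16.1% of all tested genes were called (9.51% rose and 6.57% fell). With the extract it was called for 17, 14 lower and 3 higher, where 21.9% of all tested genes were called (13.1% rose and 8.75% fell). Calls kept in every fit with 1 library left out were 22 of 26, 12 of 18 and 8 of 17, in that order. For IL-4 no member was higher, at an unadjusted p under 0.05 the counts were 23 lower and none higher, and DESeq2 called 20 lower. Ccnb2 differed by -3.57 ± 0.60 (adjusted p = 9.1e-06) with LPS and -2.61 ± 0.58 (adjusted p = 0.0018) with IL-4. Mki67 did so under all 3 stimuli, by -2.37 ± 0.37 (adjusted p = 3.3e-06), -2.09 ± 0.43 (adjusted p = 0.00074) and -3.31 ± 0.39 (adjusted p = 2.4e-08). E2f1 (2.42 ± 0.23, adjusted p = 1.5e-10), Gmnn (1.91 ± 0.30, adjusted p = 2.8e-06) and Cdk2 (1.59 ± 0.31, adjusted p = 0.00011) went upward with LPS, and so did Aurkb (1.55 ± 0.55, adjusted p = 0.029). Aurkb missed the threshold in 6 fits with 1 library left out (edgeR adjusted p from 0.0525 to 0.144), and its value was 2.54 without control 72 h replicate 1. The effects at both times are set against separate control libraries. Aurkb lost the call with no filter on low counts, with the compared groups fitted alone, without the 7 libraries rich in ambiguous reads and also in DESeq2 (adjusted p from 0.0876 to 0.266).

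Cdt1, the licensing factor that geminin restrains, had a mean of 15.2 CPM over all libraries, with a range of 5.13 to 27.9. It fell with LPS at 24 h (-1.14 ± 0.17, adjusted p = 3.9e-07) and 72 h (-1.08 ± 0.22, adjusted p = 0.00014), and with the extract at 8 h (-1.32 ± 0.17, adjusted p = 2.3e-08), 24 h (-1.26 ± 0.18, adjusted p = 3.7e-07) and 72 h (-0.67 ± 0.22, adjusted p = 0.022). With IL-4 it fell at 24 h (-0.60 ± 0.17, adjusted p = 0.015). The call at 72 h with the extract ended without control 72 h replicates 3 or 4 or cell extract 72 h replicate 2 (edgeR adjusted p from 0.0525 to 0.17). With IL-4 at 24 h Cdt1 was not called without control 24 h replicate 1 or IL-4 24 h replicate 3 (edgeR adjusted p from 0.0795 to 0.0797). It stood at 27.9, 19.1, 21.7 and 22.2 CPM at 24 h in control and 14.3, 9.84, 6.93 and 11.2 with LPS, without overlap. At 8 h with LPS it was at -0.06, not a call, while Gmnn was far below control.

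Compared per kilobase of exon, over all libraries, Pcna was the highest member at 44.5 CPM per kb, followed by Gmnn at 13.7, Mcm3 at 6.87, Mcm6 at 6.19 and E2f1 at 5.0. The lowest were Cdc6 at 0.223, Kif20a at 0.321, Kif23 at 0.360 and Bub1 at 0.442 CPM per kb. With IL-4 at 72 h the SE of the log2 fold change was 0.53 for Cdc6, 0.60 for Cdc20 and 0.66 for Kif20a, against 0.16 for Pcna. Exons of 13 members overlap another gene, in 1 case by more than 25% of its length, Kif20a with Cdc23 (29.3%), and the reads there cannot be assigned to either with certainty.

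Other genes of the same pathways were described from lists by function. Of 33 other mitotic genes, 19 fell with LPS, 14 with IL-4 and 14 with the extract at 72 h, where 15.4%, 10.5% and 12.2% of all tested genes fell. Hmmr, a spindle assembly factor, fell, with log2 fold changes of -1.75, -2.09 and -1.99, and Prc1, which bundles microtubules of the central spindle, with -2.01, -1.44 and -1.54. At 8 h 13 fell with LPS, where 24.1% of all tested genes fell, among them Cdc25b, a phosphatase that activates Cdk1 (-3.07 ± 0.34, adjusted p = 5.0e-10). Of 38 other replication genes, 4 rose and 10 fell with LPS, 5 rose and 7 fell with IL-4, and 2 rose and 7 fell with the extract at 72 h, where 31.5%, 23.7% and 26.3% of all tested genes were called in either direction. The shares of called replication genes lie near these. Dut, which removes dUTP, rose with IL-4 (2.27) and fell with LPS (-1.72) and the extract (-1.19). It was at 24.4, 18.8 and 19.8 CPM in control and 142, 32.6 and 132 with IL-4, where replicate 3 stood below the other IL-4 libraries, and its call with the extract ended without control 72 h replicate 1 (edgeR adjusted p = 0.0802). Lig1, the ligase of lagging strands, fell with LPS (-1.72). At 8 h with LPS, 5 rose and 13 fell, where 45.4% of all tested genes were called, with Timeless, a fork protection factor, at 3.66 ± 0.22 (adjusted p = 9.5e-18).

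The D cyclins and their kinases, which act upstream of the E2F factors, moved apart from each other with LPS. Of 5 genes, 3 rose and 1 fell at 8 h, where 45.4% of all tested genes were called, and Ccnd2, cyclin D2, changed most (5.69 ± 0.31, adjusted p = 1.5e-18, and 6.36 without control 8 h replicate 1). Ccnd1, cyclin D1, fell at 72 h under each stimulus (-1.98, -1.20 and -1.29), and Ccnd3, cyclin D3, rose with LPS (1.99) and the extract (1.20). Without control 72 h replicate 1 Ccnd1 was not called with IL-4 or the extract (edgeR adjusted p = 0.109 and 0.0758). Ccnd3 with the extract missed the threshold in 4 fits with 1 library left out (edgeR adjusted p from 0.0695 to 0.102). Among 7 kinase inhibitors, 3 rose and 3 fell with LPS at 72 h, 2 fell with IL-4, and 1 rose and 2 fell with the extract, where 31.5%, 23.7% and 26.3% of all tested genes were called. Cdkn1a, p21, rose with LPS at 8, 24 and 72 h (3.24, 2.21 and 1.71). Cdkn1c, p57, was at 2840.0, 1098 and 1476 CPM in control at 72 h and 42.4, 9.90, 24.7 and 14.7 with LPS (-6.48 ± 0.45, adjusted p = 6.7e-15), and it fell with IL-4 (-3.15) and the extract (-5.99).

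Of 17 pocket proteins, other E2Fs and factors of the DREAM and Myb-MuvB complexes, 5 rose and 5 fell with LPS at 8 h, where 21.3% of all tested genes rose and 24.1% fell, and 2 rose and 3 fell at 72 h, where 16.1% rose and 15.4% fell. These counts are close to the background. Rbl1, the pocket protein p107, rose at 8 h (2.82 ± 0.24, adjusted p = 3.6e-13) while Rb1, the retinoblastoma protein, fell (-1.93), and Foxm1, an activator of mitotic genes, fell at 72 h (-2.38 ± 0.59, adjusted p = 0.0015). With IL-4 at 72 h 3 rose and 1 fell, where 13.2% of all tested genes rose and 10.5% fell, with Rb1 up (1.5) and Mybl2, the B-Myb activator, down (-1.62). Mybl2 missed the threshold in 4 fits with 1 library left out (edgeR adjusted p from 0.118 to 0.19). Of 13 genes of the DNA damage checkpoint and p53, 3 rose and 4 fell with LPS at 8 h, again close to the background, with the checkpoint kinase gene Chek2 down (-2.65 ± 0.20, adjusted p = 8.4e-15) and the p53 inhibitor gene Mdm2 up (1.35 ± 0.14, adjusted p = 7.9e-11). In the growth factor list, Csf1, the macrophage growth factor, rose with LPS at 8 h (3.57 ± 0.14, adjusted p = 1.2e-22) and fell at 72 h under each stimulus (-0.93, -1.60 and -0.97). Myc rose with IL-4 at 8, 24 and 72 h (1.41, 0.99 and 2.1).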

How the data were processed

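RNA of 44 cultures was sequenced from polyadenylated molecules with a Diagenode kit (CATS mRNA-seq, v2), single-end reads of 50 bp, per the labels. The authors deposited 1 table of raw counts for each Ensembl gene and library. The submitters' processing notes name HTSeq, TopHat2 2.1.1, TopHat, Bowtie2, cutadapt, edgeR and DESeq, without their order, and build mm10. Strand setting and annotation release: not given in the sources used here. Overlapping and antisense genes therefore cannot be told apart. The 5 summary entries were left out of the fits, and ambiguous reads came to 5.39% of gene and ambiguous reads over all libraries (3.16 to 17.3% in single ones).

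Counts were filtered with edgeR 4.0.16 (filterByExpr, minimum count 10), scaled by TMM and fitted over 12 groups with 32 residual degrees of freedom, in R 4.3.3 with limma 3.58.1, and 23 comparisons were tested by quasi-likelihood and adjusted by Benjamini and Hochberg. Levels are TMM-scaled CPM. The scripts were tested on simulated counts. Alternatives were RLE size factors, DESeq2 1.42.0, CPM of the raw library total (summed levels), no filter, the compared groups alone, a replicate block, each replicate left out, and 2 sets of libraries left out, chosen after the data were seen. Cdt1 has no symbol in the table and was found by identifier. The members, lists and tests were chosen with earlier results of these data known. By the rule for named genes, the text gives 16 members by library and, per comparison, up to 4 called members of a role group and direction with the smallest p, with any that went against the majority, and up to 4 genes of each other list. The other lists held D cyclins, kinase inhibitors, pocket proteins, other replication genes, other mitotic genes, damage checkpoint genes, growth factor genes and cell type markers. Promoter windows came from RefSeq.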

Additional observations from a re-analysis of the deposited data

Results flagged for a closer look

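Among 184 groups of 4 libraries examined for a library far from the others, 13 values stood out, and chance alone does so in about 1 in 20 groups. IL-4 24 h replicate 1, the shallowest library, gave 5 of them: Gmnn at 41.39 CPM (nearest other library 26.21), Cdk2 at 6.536 CPM (23.24), Ccnb2 at 16.34 CPM (4.994), the nucleotide supply sum at 110.0 CPM (185.6) and the sum of all members at 469.5 CPM (548.6). In the LPS 24 h group, Gmnn was at 14.1 CPM in replicate 2 (nearest 18.72), and in replicate 1 Ccne1 was at 31.32 CPM (35.05) and the origin licensing sum at 100.1 CPM (112.2). The origin licensing sum was also low in LPS 8 h replicate 4, at 81.0 CPM (94.21). At 72 h with LPS, Cdk1 was at 3.479 CPM in replicate 3 (7.802) and Cdc20 at 1.928 CPM in replicate 1 (0.3662), the second-shallowest library. Pcna was at 95.68 CPM in IL-4 8 h replicate 3 (133.2), and Rrm2 at 6.226 CPM in control 24 h replicate 3 (4.725).

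The effect of a stimulus differed between 72 and 8 h, in edgeR's test of the difference itself, for the members below, given as the log2 fold change at 72 h minus that at 8 h. With LPS the values were -1.412 for Ccna2, -3.573 for Ccnb2, -1.313 for Ccne1, -2.817 for Cdc20, -1.044 for Cdk1, -1.234 for Mcm6, -2.369 for Mki67, -1.027 for Pcna, -1.686 for Rrm2, -1.22 for Top2a and -1.609 for Tyms. Upward differences with LPS were 1.594 for Cdk2, 2.42 for E2f1 and 1.912 for Gmnn. With IL-4 they were -2.606 for Ccnb2, -2.441 for Cdc20, -1.498 for Cdk1, -0.8256 for E2f1, -1.017 for Mcm5, -2.094 for Mki67, -1.864 for Rrm2, -1.851 for Tk1 and -1.282 for Top2a. With the extract they were -0.981 for Cdk1, -1.144 for Mcm5, -3.31 for Mki67, -1.375 for Rrm2, -1.293 for Tk1, -1.003 for Top2a and -1.167 for Tyms, and upward 0.9585 for Cdk2 and 0.8039 for Gmnn. Not all of these calls were kept in every fit with 1 library left out. Those that ended were Cdk1 with LPS, and Cdc20, E2f1 and Mcm5 with IL-4. With the extract the calls of Cdk1, Cdk2, Gmnn, Mcm5 and Tk1 ended.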

How the results depend on the processing

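Of 314 called values of named members, none changed direction under any alternative run on single genes. CPM of the raw library total was applied to summed levels only, so the calls were not checked on that scale. In every fit with 1 library left out 201 were kept. Calls ended for 85 with no filter on low counts, 40 of 307 with the compared groups alone, 7 in DESeq2 and 6 with RLE size factors. They ended for 56 of 288 without the 7 libraries rich in ambiguous reads and 11 of 150 without the 3 libraries with raised LPS-induced genes. Counts of called members moved by more than 1.5 times as follows, and the cause was not tested. With no filter they were 6 for LPS at 24 h, 1 for IL-4 at 8 h, 0 for IL-4 at 24 h, 3 for the extract at 24 h, 5 for the extract from 8 to 24 h, 6 for the extract from 24 to 72 h and 8 for the change of the extract's effect. With the compared groups alone they were 0 for IL-4 at 24 h, 10 for the extract at 24 h, 4 for extract against LPS at 24 h, 12 for control from 24 to 72 h, 0 for IL-4 from 8 to 24 h and 21 for the extract from 24 to 72 h. DESeq2 gave 7 for IL-4 from 8 to 24 h. Without the 7 libraries rich in ambiguous reads the counts were 1 for IL-4 at 24 h and 6 for the extract from 8 to 24 h, and without the 3 libraries with raised LPS-induced genes 0 for IL-4 at 24 h. With 1 library left out at a time, counts ranged from 1 to 3 for IL-4 at 8 h, 0 to 2 for IL-4 at 24 h, 3 to 7 for the extract at 24 h, 3 to 6 for control from 24 to 72 h, 1 to 12 for IL-4 from 8 to 24 h (12 without IL-4 24 h replicate 1), 3 to 8 for the extract from 8 to 24 h, 3 to 13 for the extract from 24 to 72 h and 10 to 18 for the change of the extract's effect. At 72 h they ranged from 27 to 34 with LPS, 21 to 25 with IL-4 and 20 to 25 with the extract. RLE size factors moved the median of all genes by -0.111 for IL-4 at 72 h, and by -0.149 and -0.131 for the changes of the IL-4 and extract effects. Among summed levels of members, 25 moved by more than their SD and 59 did not on CPM of the raw library total, and 7 and 77 with RLE size factors.

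The labels do not say that a replicate number marks a shared batch. Over 68 same-numbered pairs in 20 comparisons, deviations correlated at -0.272 to 0.603 (median 0.16), every pair was over 0.1 in 6 comparisons, and 45 of 68 correlated best with their own number. With the replicate block, 31, 28 and 26 members were called at 72 h with LPS, IL-4 and the extract, no count moved by more than 1.5 times, and 2 named calls of Mcm2 were lost, for the extract against LPS at 8 h (adjusted p = 0.0521) and for the change of the extract's effect from 8 to 72 h (adjusted p = 0.0585). Depth limits genes with few reads, such as Cdc6, Cdc20 and Kif20a, and for control 72 h, IL-4 72 h and the extract at 24 and 72 h the groups held 3 libraries.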
